A study of Mus musculus with 10 samples.

Results

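Olfactory sensory neurons are made throughout life from basal progenitors of the olfactory epithelium, and 31 genes that mark successive steps of that lineage were followed here in samples of its neighbour, the respiratory epithelium of the nose. The 31 genes were listed by role: 6 transcription factors of progenitors and differentiating neurons, 7 genes of immature, axon-growing neurons, 5 adhesion genes and 13 genes of mature neurons. Each was read from the probe set annotated to that gene symbol alone, taking the brightest on average over the 10 arrays where there was more than 1, with no filter on dim signal. This gave values for 29 of the 31 genes, out of 22180 genes measured in the same way. Gng13, a G protein gamma subunit of mature olfactory neurons, and Adcy3, their odour-responsive adenylyl cyclase, had only probe sets annotated jointly with another gene, so neither was followed.

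The samples were 5 triple knockout (TKO) embryos, which were miR-449a/b/c-/-, miR-34a-/- and miR-34b/c-/-, and 5 wild-type (WT) embryos, all at stage E16.5. TKO 1 and TKO 3 were labelled female and TKO 2, TKO 4 and TKO 5 male, and all WT embryos were labelled female except WT 3, which was male. The epithelium had been excised by laser from sections of formalin-fixed, paraffin-embedded embryos, and each embryo was hybridised to its own Affymetrix array. The comparison of TKO with WT asks which genes differ in the respiratory lining when these microRNAs are lost. Values are log2 RMA values, in which 1 unit is a doubling, and no detection call was available. The level of one gene's probe set was not set against that of another.

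The deleted microRNAs are known for their abundance in multiciliated cells and share a seed, the stretch at the 5′ end that pairs with target messenger RNAs. The mature sequences are shown because they define the genotype. They were copied from RefSeq records (GRCm38.p6) at chr4:150068473-150068494 (plus strand) for miR-34a, chr9:51103610-51103632 (minus strand) for miR-34b, chr13:113037549-113037570 (plus strand) for miR-449a and chr13:113036008-113036028 (plus strand) for miR-449c, and capitals mark the seed, bases 2 to 8.
mmu-miR-34a-5p: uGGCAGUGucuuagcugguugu
mmu-miR-34b-5p: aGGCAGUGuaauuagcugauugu
mmu-miR-449a-5p: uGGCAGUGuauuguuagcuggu
mmu-miR-449c-5p: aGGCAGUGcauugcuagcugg
All 4 carried the same 7 seed letters.

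On the arrays, Mir449c averaged 3.67 ± 0.49 in TKO and 7.26 ± 0.28 in WT (SD, n = 5 each), and Mir449a averaged 5.41 ± 0.29 in TKO and 7.20 ± 0.31 in WT. Every TKO array lay below every WT array for both. The same was true of Mir449b and Mir34b, whereas Mir34a and Mir34c overlapped. Over all genes 6.01% had genotypes that did not overlap. Mir449b differed less, at 11.79 ± 0.17 in TKO and 12.17 ± 0.04 in WT, a log2 change of -0.33 (limma, adjusted p = 0.0318). The change was -0.28 for Mir34b (adjusted p = 0.166), -0.15 for Mir34a (adjusted p = 0.633) and -0.19 for Mir34c (adjusted p = 0.318), so the labels were borne out at Mir449a and Mir449c. Whether the probe sets of Mir34a, Mir34b, Mir34c and Mir449b lie inside the deleted parts is not known here, so their values do not check the labels. Of 12 listed genes of multiciliated cells, which define this epithelium, 10 were measured, and their mean levels were 9.69 to 10.00 on the TKO arrays and 9.69 to 10.13 on the WT arrays. Arrays correlated at 0.975 to 0.989 over all probe sets.

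In the olfactory epithelium, basal progenitors express the proneural factors Neurog1 and Neurod1, differentiating cells switch on Ebf factors and Lhx2, immature neurons extend axons with growth cone proteins such as Gap43, and mature neurons carry Omp and the cyclic AMP cascade that turns odour binding into a current. Respiratory epithelium is the neighbouring lining and is not known to make these neurons. The 2 marker genes of the lineage, Omp and Gap43, both varied strongly between arrays. In such bulk samples, fewer cells of a type and less RNA per cell cannot be told apart.

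The lineage genes varied between embryos far more than most genes did, and in a shared order. Gap43, a phosphoprotein of growth cones, read 8.48, 5.76, 7.75, 6.77 and 6.30 on TKO 1 to TKO 5, against 8.24, 7.16, 6.18, 5.85 and 9.21 on WT 1 to WT 5. The highest array, WT 5, exceeded the lowest, TKO 2, by 11.0-fold. TKO 1, TKO 3, WT 1 and WT 5 were the 4 highest arrays, with both genotypes spread over much of the same range. Omp, the cytoplasmic marker of mature olfactory neurons, read 7.04, 5.90, 6.77, 5.92 and 6.21 on TKO 1 to TKO 5, against 6.78, 7.01, 5.96, 6.25 and 7.42 on WT 1 to WT 5. Here the range over the 10 arrays was 2.88-fold, WT 2 joined the high arrays, and the genotypes again overlapped.

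Over the 29 genes the median SD within genotype was 0.55, against 0.16 over all 22180 genes. Of the 29, 25 fell in the top 10% of all genes by this SD (above 0.28) and 12 in the top 1% (above 0.59). The immature neuron genes varied most, with a median SD of 0.98 and 6 of 7 in the top 1%, followed by the transcription factors with 0.66 and 3 of 6. Mature neuron genes had a median SD of 0.53 with 2 of 11 in the top 1%, and adhesion genes 0.30 with 1 of 5. High spread was not particular to the lineage. Of 10 mesenchyme genes, 9 were in the top 10% and 3 in the top 1%, and of 8 skeletal muscle genes, 6 and 3. Of 10 multiciliated cell genes, 2 were in the top 10% and 0 in the top 1%. These SDs describe the arrays and were not tested, since the genes share the same RNA.

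**Figure D1:**
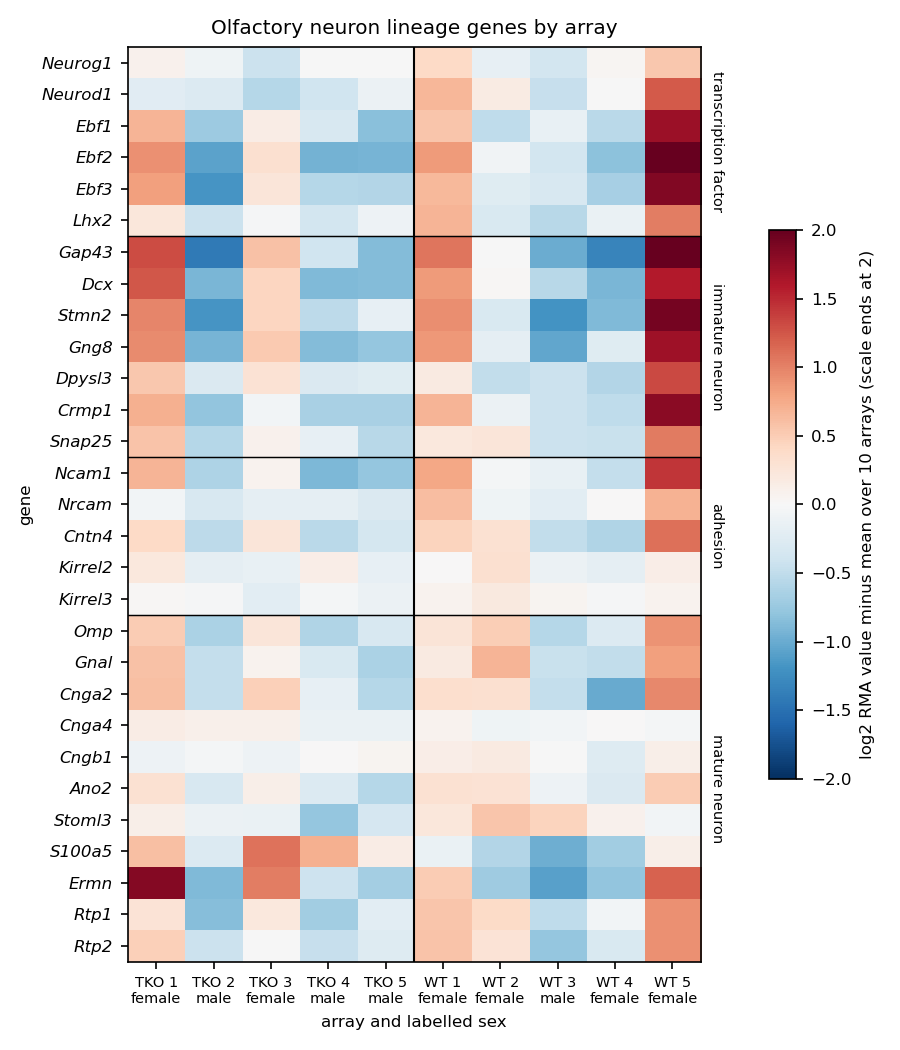
Heat map of the 29 measured lineage genes (rows, grouped by role) on the 10 arrays (columns, TKO left, WT right, with labelled sex); colour is the log2 RMA value minus that gene's mean over the 10 arrays. TKO 1, WT 1 and WT 5 are red for most genes of all 4 groups, TKO 2, TKO 4, TKO 5, WT 3 and WT 4 are mostly blue, and Kirrel3, Cnga4 and Cngb1 hardly vary.

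The same embryos stood high across the roles. WT 5 was the highest array for 22 of the 29 genes, TKO 1 was the highest TKO array for 26, and WT 5 was the highest WT array for 24. For 13 genes the 4 highest arrays were exactly TKO 1, TKO 3, WT 1 and WT 5. These were Ebf1, Ebf2, Ebf3, Lhx2, Gap43, Dcx, Stmn2, Gng8, Dpysl3, Crmp1, Ncam1, Cnga2 and Ermn, which together take in every role. Averaged over the 29 genes after centring each gene, the arrays stood at 0.53, -0.55, 0.17, -0.38 and -0.41 for TKO 1 to TKO 5 and at 0.47, 0.02, -0.44, -0.43 and 1.02 for WT 1 to WT 5. The immature neuron genes followed the same order with a wider span, 0.90, -0.87, 0.33, -0.54 and -0.59 in TKO and 0.68, -0.12, -0.72, -0.70 and 1.63 in WT. The mature neuron genes spanned less, 0.49, -0.40, 0.28, -0.28 and -0.32 in TKO and 0.27, 0.16, -0.41, -0.37 and 0.58 in WT. WT 5 therefore stood furthest out for the transcription factors, at 1.41, and for the immature neuron genes, while for mature neuron genes it was close to TKO 1. The mature neuron average includes Ermn, which was highest on TKO 1.

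The high arrays were all from embryos labelled female, and the 4 male arrays were all low. With genotype in the model, 27 of the 29 genes were lower in males than in females. None of the 29 passed the threshold (limma, adjusted p below 0.05 over all genes), where 0.0316% of all genes did. Without adjustment 19 of the 29 had p below 0.05, against 7.26% of all genes. The 29 genes share arrays and much of their order, so these are not separate results. The unadjusted limma p for sex was also below 0.05 for 13 of a list of 20 further neuronal genes. It was so for 7 of 10 mesenchyme genes, a list in which 1 gene was lower in males, and for 0 of 10 multiciliated cell genes. Gap43 averaged 6.25 over the 4 males and 7.78 over the 6 females. WT 4, a female, read 5.85 for Gap43 and lay among the males, so the sexes were not cleanly parted. Because 3 of 5 TKO embryos and 1 of 5 WT embryos were male, labelled sex was kept in the genotype model. Whether genotype acts differently in the 2 sexes could not be judged, because WT 3 was the only WT male. The interaction estimate, male minus female, was 1.12 for Neurod1 and -0.41 for Gap43, with standard errors of 0.47 and 1.16.

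Genes of other tissues around the nasal cavity also differed in level between the same arrays. Mesenchyme genes, from a list of 10 that were all measured, averaged -0.46, 0.14, -0.79, 0.60 and 0.29 on TKO 1 to TKO 5 and -0.13, -0.46, 0.38, 0.51 and -0.08 on WT 1 to WT 5. The 5 arrays with the lowest average over the lineage genes were thus the 5 highest in mesenchyme genes. Skeletal muscle genes shared this order only in part. They averaged 1.03 on WT 3 and -0.67 on TKO 1, but 0.78 on WT 1 and -0.33 on TKO 2. Multiciliated cell genes spanned only -0.22 to 0.10 in TKO and -0.22 to 0.23 in WT. The 12 measured genes of supporting and gland cells of the olfactory epithelium averaged 0.42 on TKO 1 and 0.15 on WT 1, their highest arrays within each genotype, but -0.00 on WT 5, the highest array for the lineage genes. Cyp2g1, an olfactory supporting cell and gland cytochrome P450 picked out after its values were seen, read 9.68, 5.30, 7.36, 5.42 and 5.03 in TKO and 7.18, 6.31, 6.19, 5.31 and 7.76 in WT. Its 4 highest arrays were again TKO 1, TKO 3, WT 1 and WT 5, and Muc2, of the same list, had the same 4. Sox9, Gpx6 and Cyp1a2 did not follow and were lowest on WT 5. These genes, Muc2 included, were named after their values were seen. Gpx6 was dim, with a mean of 4.27, below the 25th percentile of gene means. How much olfactory epithelium, mesenchyme or any other tissue was cut into each sample was not tested.

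**Figure D2:**
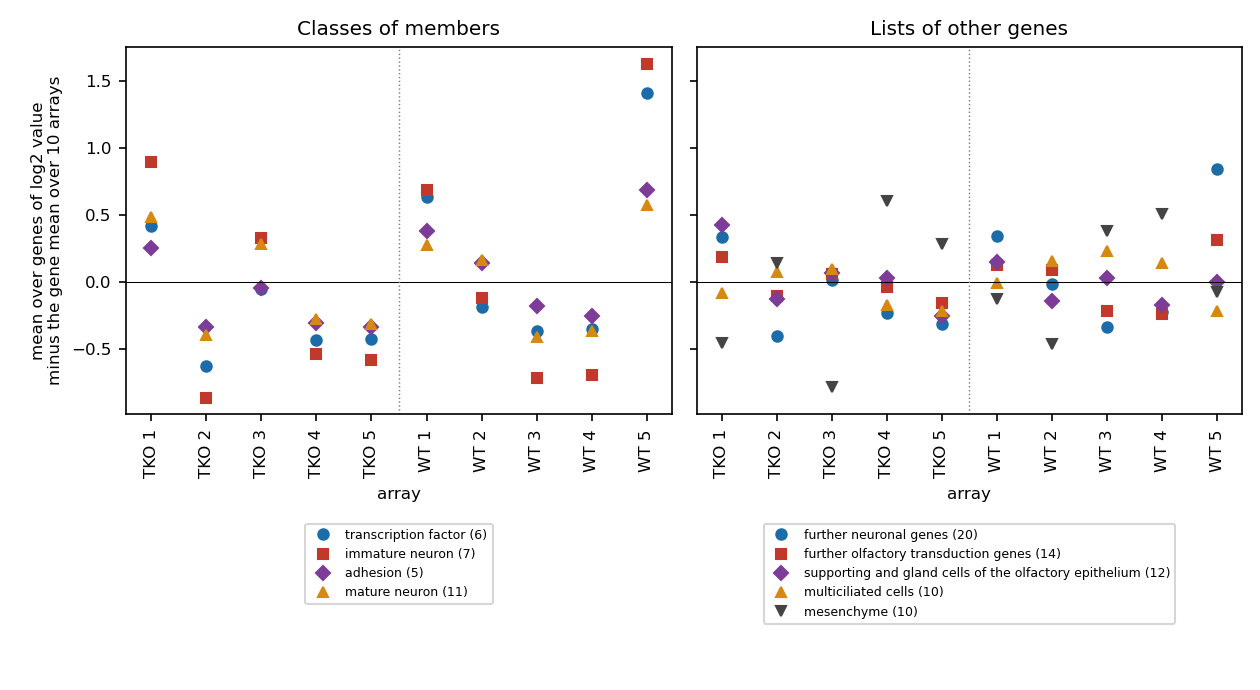
Mean over genes of the centred log2 value on each array (horizontal axis, TKO left, WT right), for the 4 groups of lineage genes (left panel) and 5 lists of other genes (right panel); the number of genes is in brackets. Immature neuron genes range from -0.87 on TKO 2 to 1.63 on WT 5, and mesenchyme genes are lowest on TKO 3, at -0.79.

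Between genotypes, the median log2 change of the lineage genes, TKO minus WT with sex in the model, was -0.00, with 14 of the 29 positive, and the median over all genes was -0.01. Without sex in the model 3 of the 29 changes were positive, those of Cnga4, S100a5 and Ermn, and the group medians were -0.47 for transcription factors, -0.32 for immature neuron genes, -0.31 for adhesion genes and -0.28 for mature neuron genes. The signs of 2 group medians, and of all uncalled genes positive with sex in the model other than Cnga4 and Ermn, thus depended on the sex term. A single member, S100a5, was higher in TKO, and none was lower, at an adjusted p below 0.05. Over all 22180 genes 626 were higher, 2.82%, and 153 were lower, 0.69%, so 1 in 29 is near the background. Without adjustment, S100a5, Ermn and Stoml3 had p below 0.05, 3 of 29 against 17.3% of all genes. No member had TKO and WT arrays that did not overlap, which 6.01% of all genes did.

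**Figure D3:**
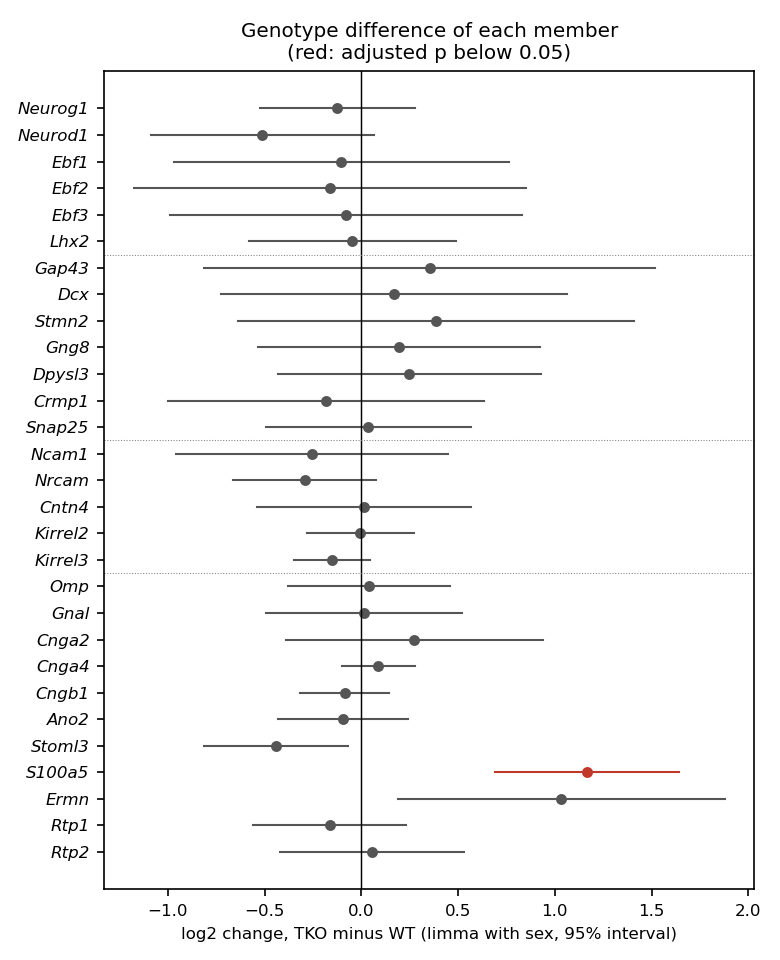
Log2 change of each measured lineage gene, TKO minus WT, from the limma model with sex (points) with its 95% interval (lines), grouped by role from transcription factors at the top to mature neuron genes at the bottom. S100a5, in red, is the gene that passed an adjusted p of 0.05; Stoml3 and Ermn have intervals that do not reach 0, and all other intervals cross it.

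Among the transcription factors, all 6 changes were negative in sign with a median of -0.11, and none passed the test. The most negative was that of Neurod1, a basic helix-loop-helix factor that acts after Neurog1 in neuronal commitment. It read 4.99, 4.94, 4.63, 4.82 and 5.09 on TKO 1 to TKO 5, against 5.88, 5.38, 4.74, 5.21 and 6.44 on WT 1 to WT 5. The log2 change was -0.51 (95% interval -1.09 to 0.07, limma adjusted p = 0.352). The TKO arrays lay in a narrow band, whereas the WT arrays ran from inside that band to WT 5 well above it. Neurog1, the earlier proneural factor, ranged from 4.35 to 4.86 in TKO and from 4.42 to 5.33 in WT and differed by -0.12 (adjusted p = 0.803).

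The Ebf genes encode the Olf/EBF factors, which bind the promoters of many olfactory neuron genes. Ebf2 read 7.11, 5.13, 6.52, 5.25 and 5.28 in TKO, against 7.05, 6.13, 5.84, 5.37 and 8.34 in WT, a 9.26-fold span from TKO 2 to WT 5. Ebf3 read 7.84, 5.83, 7.25, 6.45 and 6.42 in TKO, against 7.66, 6.77, 6.69, 6.35 and 8.86 in WT, a span of 8.14-fold between the same arrays. Both were high on TKO 1, TKO 3, WT 1 and WT 5, and the genotypes overlapped. The change was -0.16 for Ebf2 (95% interval -1.18 to 0.85) and -0.08 for Ebf3 (95% interval -0.99 to 0.83). Ebf1 ranged from 5.75 to 7.26 in TKO and from 6.05 to 8.29 in WT, with a change of -0.10. Lhx2, a LIM homeodomain factor needed for olfactory neuron differentiation, ranged from 6.69 to 7.35 in TKO and from 6.57 to 8.15 in WT, with a change of -0.05. WT 5 was the highest array for every one of these 6 factors. A second probe set of Ebf2 gave a change of 0.24 (adjusted p = 0.622 over all probe sets), so the 2 probe sets disagreed in sign and neither passed.

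Immature neuron genes had a median change of 0.19 with sex in the model, with 6 of 7 positive and none past the threshold; without sex none of the 7 was positive. Gap43 averaged 7.01 ± 1.10 in TKO and 7.33 ± 1.41 in WT (SD, n = 5 each). With sex in the model its change was 0.35 (95% interval -0.81 to 1.52, adjusted p = 0.809), opposite in sign to the difference of the means. Stmn2, a regulator of microtubule turnover in growth cones, read 8.83, 6.67, 8.28, 7.33 and 7.70 in TKO, against 8.79, 7.55, 6.66, 6.98 and 9.78 in WT. Its change was 0.39 (95% interval -0.64 to 1.41, adjusted p = 0.746), a difference smaller than the gap between WT 1 and WT 5 alone. The intervals of Gap43 and Stmn2 still hold a rise of 1 log2 unit in TKO, and that of Ebf2 a fall of 1 unit.

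None of the other 5 genes of the group passed either. Dcx, the microtubule protein doublecortin of young neurons, ranged from 3.75 to 5.90 in TKO and from 3.74 to 6.24 in WT, with a change of 0.17. Gng8, a G protein gamma subunit of immature olfactory and vomeronasal neurons, ranged from 5.31 to 7.19 in TKO and from 5.21 to 7.94 in WT, with a change of 0.19. Dpysl3 and Crmp1 encode collapsin response mediator proteins of growing axons, and Snap25 a SNARE protein of neurotransmitter release. Dpysl3 ranged from 7.61 to 8.43 in TKO and from 7.31 to 9.23 in WT (change 0.25), and Crmp1 from 5.33 to 6.82 in TKO and from 5.61 to 7.92 in WT (change -0.18). Snap25 ranged from 5.12 to 6.25 in TKO and from 5.23 to 6.73 in WT (change 0.04). In all 7 genes of the group TKO 1 was the highest TKO array and WT 5 the highest of all. A second probe set of Dpysl3 had a change of -0.04, opposite in sign to the first.

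The adhesion genes had a median change of -0.15, with 1 of 5 positive and none past the threshold. Ncam1, the neural cell adhesion molecule carried by all olfactory neurons, read 7.55, 6.25, 6.95, 5.97 and 6.10 in TKO, against 7.64, 6.84, 6.73, 6.41 and 8.31 in WT. Its change was -0.26 (95% interval -0.96 to 0.45, adjusted p = 0.757). Cntn4, a contactin of axon guidance, read 6.19, 5.27, 6.03, 5.25 and 5.44 in TKO, against 6.24, 6.09, 5.29, 5.19 and 6.89 in WT, with a change of 0.01. Both genes were high on TKO 1 and WT 5 and overlapped between genotypes. Nrcam, an L1-family adhesion molecule, read 4.32, 4.04, 4.19, 4.18 and 4.08 in TKO, against 4.99, 4.28, 4.16, 4.37 and 5.06 in WT, with a change of -0.29 (adjusted p = 0.417). WT 1 and WT 5 stood above all other arrays for Nrcam, and the remaining 8 lay within 4.04 to 4.37. Nrcam was dim, with a mean of 4.37 over the 10 arrays, below the 25th percentile of gene means at 4.58. Kirrel2 and Kirrel3, which sort olfactory axons by homophilic adhesion, varied less than the other adhesion genes. Their highest-to-lowest spans were 1.42-fold and 1.33-fold and their changes -0.00 and -0.15. The SD within genotype was 0.19 for Kirrel2 and 0.09 for Kirrel3, against a median of 0.16 over all genes.

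**Figure D4:**
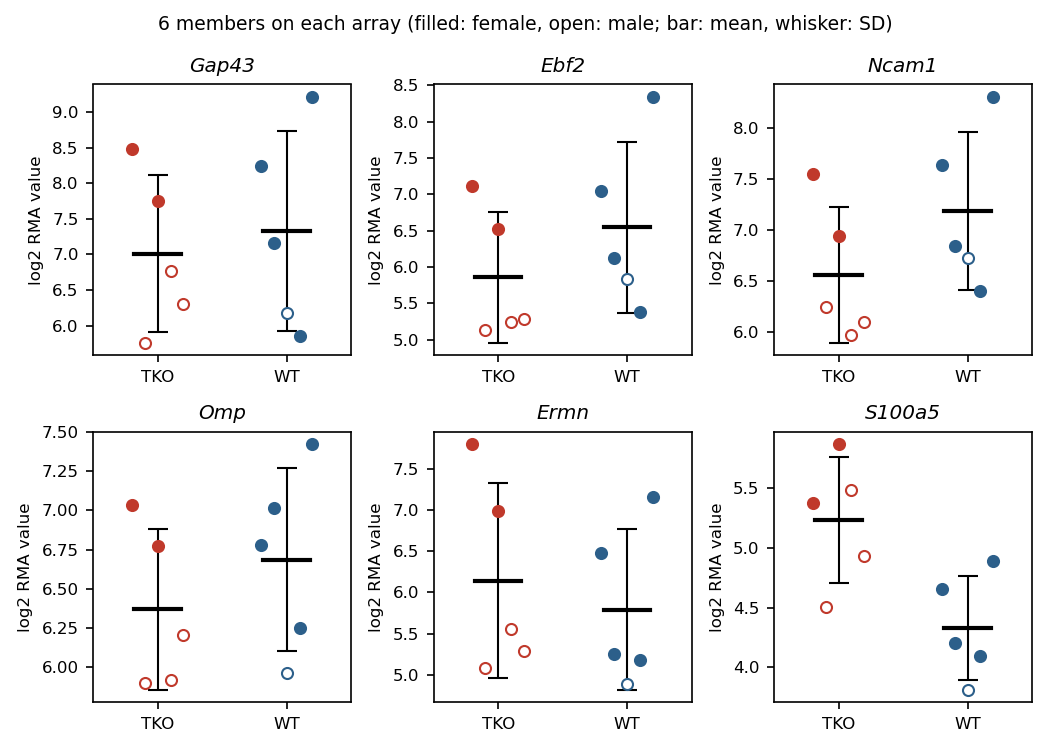
Log2 RMA values of 6 lineage genes on each array, TKO left of WT; filled points are females, open points males, the bar is the mean and the whisker the SD (n = 5 each). For Gap43, Ebf2, Ncam1, Omp and Ermn both genotypes spread over a similar range with the male arrays low, and for S100a5 the TKO mean of 5.24 lies above the WT mean of 4.33 with an overlap at TKO 2.

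Of the mature neuron genes, S100a5, a calcium-binding protein of odour-stimulated mature neurons, was the gene that was called. It read 5.38, 4.51, 5.87, 5.49 and 4.94 on TKO 1 to TKO 5, against 4.65, 4.20, 3.81, 4.09 and 4.89 on WT 1 to WT 5. TKO 2 was below WT 1 and WT 5, so the genotypes overlapped, but within females every TKO array was above every WT array. The male TKO arrays were above WT 3, the single WT male and the lowest array of all. The means were 5.24 ± 0.53 in TKO and 4.33 ± 0.44 in WT (SD, n = 5 each), and the change was 1.17 (95% interval 0.69 to 1.64), which is 2.24-fold with sex in the model (adjusted p = 0.0125). The WT mean was dim, below the 25th percentile of gene means at 4.58, and no detection call was available. The call was lost without sex in the model (0.91, adjusted p = 0.0664), in the females alone (1.16, adjusted p = 0.122), without TKO 3 (1.04, adjusted p = 0.0830) and without WT 3 (1.16, adjusted p = 0.0984). Over both genotypes TKO 3 and TKO 4 were its highest arrays, unlike for Gap43 or Omp. Within genotypes its order was partly shared: WT 5 was the highest WT array and TKO 2 the lowest TKO array, as for Gap43 and Omp.

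Ermn was listed with the mature neuron genes and had the same sign. It is an actin-binding protein best known from oligodendrocytes and also described in olfactory supporting cells. It read 7.80, 5.09, 6.98, 5.56 and 5.29 in TKO, against 6.47, 5.26, 4.89, 5.18 and 7.15 in WT. TKO 1 and TKO 3 were high as for the neuron genes, and the arrays overlapped. The change was 1.03 (95% interval 0.19 to 1.88, adjusted p = 0.186), so it did not pass. Without sex in the model the change was 0.35 (adjusted p = 0.819), and without TKO 1 it was 0.71 (adjusted p = 0.489). With a neuronal score as a further covariate, an alternative chosen after seeing the data, the change was 1.10 (adjusted p = 0.00731). Stoml3, a stomatin-like protein of olfactory cilia that is also made by airway multiciliated cells, is given by array after its values were seen and read 7.87, 7.64, 7.62, 6.98 and 7.42 in TKO, against 7.98, 8.31, 8.19, 7.84 and 7.70 in WT. The change was -0.44 (95% interval -0.81 to -0.07, adjusted p = 0.203). Unlike Gap43 and most of the lineage, Stoml3 was highest on WT 2, WT 3 and WT 1, and WT 5 was the lowest WT array.

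Neither Omp nor any gene of odour transduction or receptor transport passed the test. Omp averaged 6.37 ± 0.52 in TKO and 6.69 ± 0.59 in WT (SD, n = 5 each), and with sex in the model its change was 0.04 (95% interval -0.38 to 0.46, adjusted p = 0.944). Gnal, the alpha subunit Golf that couples odorant receptors to adenylyl cyclase, ranged from 5.46 to 6.68 in TKO and from 5.61 to 6.92 in WT and differed by 0.01. The 3 subunits of the cyclic nucleotide-gated channel differed by 0.27 for Cnga2, 0.09 for Cnga4 and -0.09 for Cngb1. Cnga2, the principal subunit, ranged from 4.32 to 5.49 in TKO and from 3.88 to 5.85 in WT and followed the shared order of arrays, whereas Cnga4 and Cngb1 had highest-to-lowest spans of 1.21-fold and 1.36-fold. Ano2, the calcium-activated chloride channel that amplifies the odour current, reached at most 6.09 in TKO and 6.29 in WT and differed by -0.09. Rtp1 and Rtp2, chaperones that bring odorant receptors to the cell surface, differed by -0.16 and 0.05. Rtp1 ranged from 6.05 to 7.18 in TKO and from 6.41 to 7.82 in WT, and Rtp2 from 5.22 to 6.15 in TKO and from 4.91 to 6.59 in WT, both with WT 5 highest. The 11 measured mature neuron genes had a median change of 0.04.

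Further genes of the pathway outside the 29, from lists chosen by function, gave few calls. Of 13 measured further progenitor genes none passed, with a median change of -0.00. Of 20 further neuronal genes none passed, with a median of -0.04. Of 14 further olfactory transduction genes Nqo1, a quinone reductase that marks a dorsal zone of olfactory neurons but is widely expressed, was higher in TKO (8.72 ± 0.15 in TKO and 8.28 ± 0.16 in WT, SD, n = 5 each, change 0.52, adjusted p = 0.00891). None was lower, and the list's median was 0.05. Tubb3, the neuronal beta-tubulin, chosen after its values were seen, repeated the shared order, at 8.62, 5.42, 7.44, 6.12 and 5.71 in TKO and 8.43, 6.98, 5.44, 6.19 and 9.45 in WT.

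Lists of other cell types gave 2 calls in all, both lower in TKO. Over all genes 2.82% were higher and 0.69% lower. Col3a1, a fibrillar collagen, was lower in TKO among 10 mesenchyme genes (change -0.48, adjusted p = 0.0290), and that list had a median of -0.39. Tnnt3, a fast skeletal muscle troponin, was lower in TKO among 8 muscle genes (change -1.01, adjusted p = 0.0358), with a list median of -0.72. The lists of supporting and gland cells, horizontal basal cells, vomeronasal and GnRH neurons, glia, multiciliated cells and neuroendocrine and tuft cells had no call in either direction, and their medians lay between -0.14 and 0.07. Without adjustment, limma p was below 0.05 for 7 of 8 muscle genes and 5 of 10 multiciliated cell genes, against 17.3% of all genes. It was below 0.05 for 4 of 10 genes each of mesenchyme and glia, and for 1 or 2 genes in each remaining list.

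Odorant receptors, of which a mature neuron is known to express a single one, gave few calls. Of 1105 measured olfactory receptor genes, 6 were higher and 2 lower in TKO, both smaller shares than the 2.82% and 0.69% over all genes. However, 945 of the 1105 had means below the 25th percentile of all gene means. With so many dim probe sets and no detection call, the small shares say little about the receptors. Their median change was -0.03. The receptor with the smallest p was Olfr128, at 6.20 ± 0.14 in TKO and 6.83 ± 0.16 in WT (SD, n = 5 each), a change of -0.71 (adjusted p = 0.00187). Olfr332 and Olfr1372-ps1, by its name a pseudogene, were higher in TKO, by 0.70 and 0.72 (adjusted p = 0.00591 for both). All 3 had non-overlapping genotypes, and their SDs within genotype were 0.15 to 0.19, against 1.26 for Gap43. None of 15 trace amine-associated receptors or 289 vomeronasal receptors passed, and 11 and 261 of these were below the same percentile.

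The promoters of some lineage genes are shown because EBF factors are known to act on olfactory genes through a core written CCCNNGGG, which reads the same on both strands. In RefSeq's table (GRCm38.p6), covering 250 bases before to 50 after each start, 21 of the 31 genes had a promoter. The letters CCCNNGGG occurred in 9 of these 21 genes, 42.9%, against 15.4% of 27025 genes. The homeodomain core TAATTA occurred in 3 of the 21, Neurog1, Dcx and Cntn4, 14.3% against 6.12%. No promoter of the 21 held both cores, and neither share was tested. Below are the stretches that hold CCCNNGGG upstream of the start of 5 measured genes, 5′ to 3′ on the gene's strand, with the core in capitals: Ebf3 (chr7:137314446-137314486, minus strand), Ano2 (chr6:125711101-125711148, plus strand), Cngb1 (chr8:95306687-95306734, minus strand), Rtp2 (chr16:23930969-23931016, minus strand) and Cnga2 (chrX:71991763-71991810, plus strand).
Ebf3: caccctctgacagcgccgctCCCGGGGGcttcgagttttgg
Ano2: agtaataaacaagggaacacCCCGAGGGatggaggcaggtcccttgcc
Cngb1: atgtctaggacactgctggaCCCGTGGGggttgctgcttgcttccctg
Rtp2: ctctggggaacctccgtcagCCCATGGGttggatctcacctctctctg
Cnga2: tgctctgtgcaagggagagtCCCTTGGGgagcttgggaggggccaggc
Having the core did not go with one pattern on the arrays: Ebf3 and Cnga2 followed the shared order of embryos and Cngb1 hardly varied. A match of letters is a description of the sequence and shows no binding.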

How the data were processed

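RNA from laser-captured nasal respiratory epithelium of 10 embryos was measured on 1 array each. The authors deposited log2 values made by RMA in the Affymetrix Expression Console, per the submitters' processing notes; program version and summary level: not given in the sources used here. Of 41345 probe sets, 23521 had 1 gene symbol, 1814 several and 16010 none. The brightest probe set per gene gave 22180 genes, and all 29 measured members matched RefSeq by Entrez ID.

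TKO was compared with WT in limma 3.58.1 (R 4.3.3; sex and genotype, intensity trend, two-sided, Benjamini-Hochberg adjustment over all genes, threshold 0.05). The fit was tested on simulated data with known genotype changes. The simulated noise was drawn separately for each gene, without a sex effect or a pattern shared between genes. That test therefore does not cover the shared order of embryos or the unequal sexes. The labels do not say which embryos shared a litter. Members, groups and lists were chosen with earlier results of these data known. All members are named; values per array are given for Omp, Gap43, called members and, per group, the 2 with the largest SD over the 10 arrays and the 1 with the smallest p; from other lists and receptors the called genes, up to 3. Gene names outside this rule are marked. Same-numbered arrays did not deviate together (correlations -0.10 to 0.31), so numbers were not taken as pairs. Alternatives covered the model, filters, scaling, variance, probe sets, females only and leaving out arrays. Figures used matplotlib 3.10.9.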

Additional observations from a re-analysis of the deposited data

Results flagged for a closer look

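On TKO 1, Fabp7, a fatty acid-binding protein of ensheathing glia and other glial and progenitor cells, read 7.85, far above the next TKO array at 4.67; the gap was 0.945 of the TKO range. In WT it was 8.36 on WT 1, next highest on WT 5, and 4.13 to 4.75 on the others. Mir449b, a targeted microRNA, read 12.08 on TKO 1 and at most 11.76 on the other TKO arrays, a gap of 0.772 of the range. None of the 29 lineage genes stood out in this way. Chance alone flags about 1 in 20 of the groups of arrays examined, of which there were 106, more than were flagged here.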

How the results depend on the processing

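The number of members lower in TKO was 0 under every alternative run. The number higher was 1 in the reported model, and 0 with genotype alone, among genes above the median of means (where S100a5 was filtered out) and in females only. It was 2 with the score of further neuronal genes as a covariate, chosen after seeing the data, when Ermn joined S100a5 (1.10). It ran from 0 to 1 with arrays left out in turn, and was 0 without TKO 3 or WT 3. S100a5 stayed between 0.91 and 1.36 and was called in 19 of the 23 alternatives that gave it a value; the replicate block gave 1.17 (adjusted p = 0.0257). Leaving out TKO 1 and WT 5 together, also chosen after seeing the data, gave 1.36 (adjusted p = 0.0168). Over all genes, 243 were lower with the replicate block, 351 with the neuronal score, and in females only 41 were higher and 4 lower. With arrays left out, 153 (without WT 3) to 774 (without WT 5) were higher and 10 (without WT 3) to 358 (without WT 5) lower. The cause was not tested; each such fit has fewer arrays. The 28 uncalled members changed sign in 62 of 658 values over 24 alternatives, in 19 genes, among them Gap43, Ebf2 and Omp, so no direction is claimed for them.

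With 5 embryos per genotype and an SD near 1 log2 unit for the immature neuron genes, the number of arrays limits the precision for those genes, and probe sets shared with another gene (Gng13, Adcy3) were not used.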
